A study of Mus musculus with 6 samples.

Results

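Open chromatin was compared at 10 genes that restrain MAP kinase signalling: Dusp1, Dusp2, Dusp4, Dusp5, Dusp6, Dusp10, Spry1, Spry2, Spred1 and Spred2. A peak was counted with one of these genes if it overlapped the gene body, or if it overlapped no protein-coding gene and had that gene as its nearest protein-coding gene within 100 kb. This gave 150 of the 97124 peaks, 56 that touch a gene body and 94 between protein-coding genes. Some of the 94 overlap an annotated gene that is not protein-coding. Being nearest describes where a peak lies, and no target gene was measured. Quiescent bone marrow B-cells (n = 3 samples) were set against proliferating bone marrow B-cells (n = 3 samples). All 6 samples came from PEtg mice, as the labels name them, so both groups share that genotype. The groups differ in H2B-GFP, a fluorescent histone whose label is shared out and thinned at each division, which was high in quiescent and low in proliferating cells. The sources used here give neither the age of the mice nor whether each sample is a separate mouse. The p-values therefore reflect sample-to-sample spread, part of which may be technical.

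MAP kinase cascades carry growth factor, cytokine and antigen receptor signals through Ras, Raf and MEK to the kinase ERK, and through parallel branches to the stress kinases JNK and p38. Active ERK induces genes whose products shut the pathway down again. Dual-specificity phosphatases (the Dusp proteins) remove phosphate from both the threonine and the tyrosine that switch a MAP kinase on, while Sprouty (Spry) and Spred proteins act further upstream, between the receptor and Raf. In developing B cells the cascade works downstream of the pre-B-cell receptor and of interleukin receptors.

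The promoters of 4 members are printed. Lower signal in quiescent cells was called at the start sites of Dusp6 and Dusp10. Dusp1 and Dusp5 held motif matches described below, and their start sites were not called. Nor were those of Dusp2, Spry1, Spry2, Spred1 and Spred2. No difference between genes was tested. Promoter sequences are from RefSeq (GRCm38.p6, the assembly behind mm10), and 9 of the 10 members were matched in the promoter table used here, all but Dusp4. Each line holds the 250 bases before the start, written 5′ to 3′ on the strand of the gene. Capitals mark matches on either strand to a cAMP response element (CRE, TGACGTCA), to its shorter core (TGACG), which the CRE contains, or to a CArG box, the motif of serum response factor. The windows are chr17:26508473-26508722 on the minus strand for Dusp1, chr19:53528895-53529144 on the plus strand for Dusp5, chr10:99262981-99263230 on the plus strand for Dusp6, and chr1:184034131-184034380 on the plus strand for Dusp10.
Dusp1: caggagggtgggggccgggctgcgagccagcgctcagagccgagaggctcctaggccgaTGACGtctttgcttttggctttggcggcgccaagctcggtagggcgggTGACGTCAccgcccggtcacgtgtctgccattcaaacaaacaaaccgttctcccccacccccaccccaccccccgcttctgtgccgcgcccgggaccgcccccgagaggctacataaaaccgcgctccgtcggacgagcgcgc
Dusp5: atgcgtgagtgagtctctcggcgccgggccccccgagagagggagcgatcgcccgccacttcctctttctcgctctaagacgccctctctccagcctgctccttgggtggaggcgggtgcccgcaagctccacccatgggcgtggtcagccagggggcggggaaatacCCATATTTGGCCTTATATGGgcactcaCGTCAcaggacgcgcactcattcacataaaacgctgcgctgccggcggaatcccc
Dusp6: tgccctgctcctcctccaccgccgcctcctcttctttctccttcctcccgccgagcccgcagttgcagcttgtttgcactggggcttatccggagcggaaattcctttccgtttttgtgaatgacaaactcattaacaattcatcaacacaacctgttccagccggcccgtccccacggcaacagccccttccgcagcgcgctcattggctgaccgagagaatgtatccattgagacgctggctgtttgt
Dusp10: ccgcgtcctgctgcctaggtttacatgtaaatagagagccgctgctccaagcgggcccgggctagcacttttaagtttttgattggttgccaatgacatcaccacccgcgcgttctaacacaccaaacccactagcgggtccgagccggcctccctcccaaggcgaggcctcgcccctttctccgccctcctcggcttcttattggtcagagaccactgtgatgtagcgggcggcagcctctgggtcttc

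The Dusp1 promoter held a full CRE 143 bases before the start and a separate core 191 bases before it. The Dusp5 promoter held a pair of CArG boxes, 82 and 72 bases before the start, and a CRE core at 55 bases. Of the 9 member promoters 1 held the CRE, 3 the core and 1 a CArG box. The third with a core was Spred2, 51 bases before its start. Among 21263 promoters of protein-coding genes 1.92% held the CRE, 20.2% the core and 1.39% a CArG box. The AP-1 letters TGANTCA and the ETS letters CCGGAAGT, both searched on both strands, occurred in 0 of the 9 member promoters, against 6.13% and 3.79% of all promoters. An E-box (CANNTG, not capitalised) lay in 5 of the 9 and in 62.8% of all promoters. These are matches of letters within this window and say nothing of binding.

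ATAC-seq measures how often a transposase inserts adapters at a site, so a higher signal means more accessible chromatin in the pooled cells of a sample. A site open in fewer cells and a site less open in each cell cannot be told apart. The authors deposited 1 scaled signal value per peak and sample, and values below are this signal in samples 1, 2 and 3 of each group, in that order. The reads in peaks behind these values, estimated from the steps between low values, ranged from 14020263 to 28183489 in quiescent and from 8053094 to 48850881 in proliferating samples. Proliferating sample 1 was the shallowest, with a median of 27 reads per peak, against 179 in proliferating sample 3. Peaks were assigned to all 10 B-lineage marker genes, to 9 of 12 myeloid, 9 of 10 T and NK, 7 of 10 erythroid and megakaryocyte, and 8 of 8 plasmacytoid dendritic and plasma cell markers. The myeloid genes Mpo, Elane and Ctsg, the T-cell gene Cd3g, and the erythroid genes Gata1, Epor and Hbb-bs had no assigned peak. Summed signal at the plasmacytoid dendritic and plasma cell markers did not overlap (41210.4 to 42201 in quiescent and 37521 to 38815 in proliferating samples). For scale, the sums of single genes did not overlap at 30.7% of all 15839 genes with a peak. In the fit described below, 12 of 116 tested peaks of this list were higher in quiescent cells, at 4 of its 8 genes. The 2 lower ones were both in Tcf4. Among all tested peaks 4.01% were higher and 2.72% lower. Myeloid markers had 5 of 48 tested peaks higher and 3 lower, and B-lineage markers 4 of 213 higher and 3 lower. T and NK markers had 2 of 36 higher and 0 lower, and erythroid and megakaryocyte markers 0 of 44 higher and 2 lower. The sums overlapped for B-lineage (63242 to 66604 in quiescent and 59639 to 67165 in proliferating samples), myeloid (11924 to 13855 in quiescent and 10623 to 12989.9 in proliferating samples), T and NK (10689 to 12618 in quiescent and 11441 to 12313 in proliferating samples) and erythroid and megakaryocyte markers (6564 to 7152 in quiescent and 7109 to 7661 in proliferating samples). The part of other cell types in the results below was not tested.

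Of the 150 peaks 135 were strong enough to test, with a mean signal above the weakest 10% of all peaks, and the 15 others had mean signals of 4.12 to 17.7. With limma on log2(signal + 1), 6 member peaks were higher and 6 lower in quiescent cells at an adjusted p under 0.05. That is 4.44% of the tested members in each direction, against 4.01% higher and 2.72% lower among all 87411 tested peaks. Together these 12 are 8.89% of the members, beside 6.72% of all tested peaks in either direction. The share of members that changed was near the background, and the results below describe single peaks. The median log2 fold change (quiescent over proliferating) was -0.04 over the members and -0.01 over all tested peaks. The groups did not overlap at 42 of the 135 member peaks (31.1%), with 24 above (17.8%) and 18 below (13.3%), against a background of 30.4%, of which 15.4% above and 14.9% below.

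Deviations from the group mean correlated at 0.43, 0.29 and 0.21 between samples numbered 1, 2 and 3 in the labels. Quiescent sample 2 with proliferating sample 3 reached 0.22, so numbers 2 and 3 are not separated. The labels do not say what a number marks. The fit was repeated with the number as a block. Then 13 member peaks were higher and 14 lower, 9.63% and 10.4% of 135, against 10.2% and 8.14% of all tested peaks (18.3% in either direction). All 12 peaks called without the block were among them. The 12 calls depend on single libraries. Without quiescent sample 2 or quiescent sample 3 limma called 0 member peaks, with 15 higher and 11 lower, or 16 higher and 14 lower, at an unadjusted p under 0.05. Over all tested peaks it then called 79 higher and 82 lower without quiescent sample 2, and 0 and 0 without quiescent sample 3, with 10.4% higher and 8.74% lower, or 10% and 8.89%, at an unadjusted p under 0.05. The loss of calls was thus not particular to the members. Without proliferating sample 2 it called 1 member peak (higher), against 556 higher and 234 lower of all, and without proliferating sample 3 it called 2 (both higher), against 753 and 407 of all. Without quiescent sample 1 it called 8 higher and 8 lower member peaks, against 3428 and 3077 of all. Without proliferating sample 1 it called 9 higher and 5 lower, against 5572 and 2669 of all. In each of these 2 fits 8 of the 12 peaks were still called. Each of the 12 peaks kept its direction when any 1 sample was left out.

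**Figure D1:**
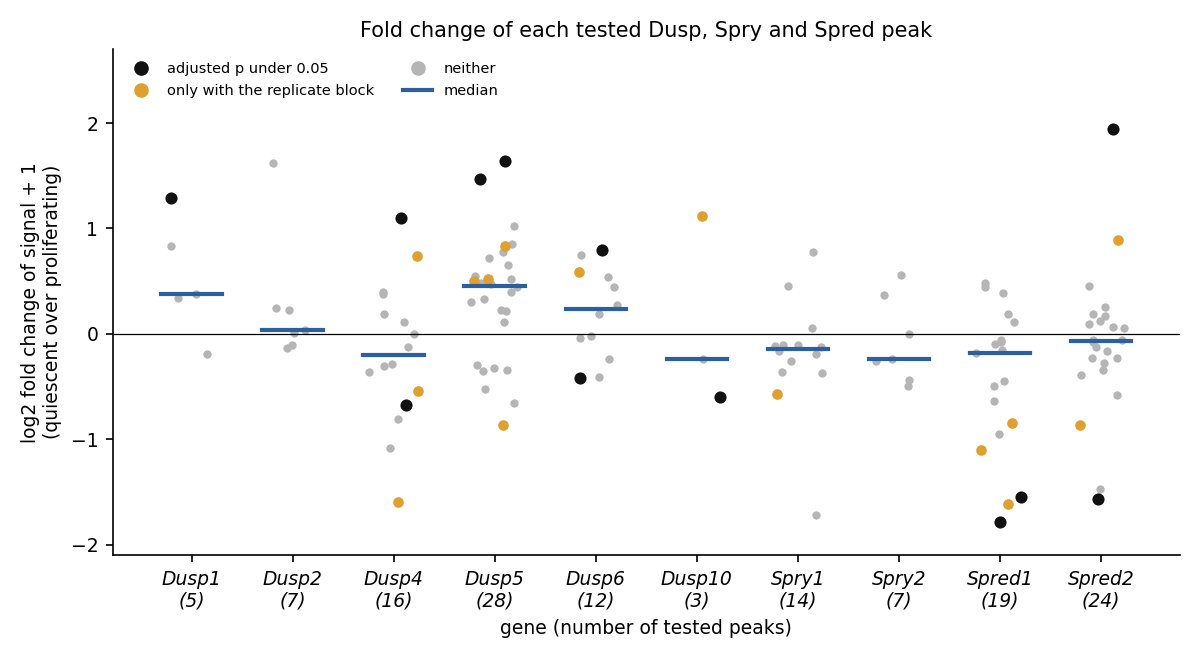
Log2 fold change of signal + 1 (quiescent over proliferating) of each of the 135 tested peaks, by gene. Black points are the 12 peaks with an adjusted p under 0.05, orange points pass only with the replicate block, grey points pass in neither fit, and blue bars are medians. Medians run from 0.46 at Dusp5 to -0.24 at Spry2.

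Dusp1, Dusp2, Dusp4 and Dusp5 encode phosphatases that act in the nucleus and are induced when cells are stimulated. At Dusp1, whose product acts on ERK, JNK and p38, the changed peak was not the one over the gene. A peak 23959 bp upstream of the start (chr17:26532431-26533036) had a signal of 157, 145 and 161 in quiescent samples, against 42.7, 78.8 and 71.7 in proliferating samples. Every quiescent sample lay above every proliferating one, and the peak rose by 1.29 ± 0.27 on the log2 scale (SE, adjusted p = 0.0262). The peak over the start (chr17:26507040-26509727), which covers the CRE, had 398, 518 and 499 in quiescent samples, against 430.2, 560.3 and 633 in proliferating samples. The groups overlapped there (-0.19 ± 0.19, adjusted p = 0.582). The other 3 Dusp1 peaks had log2 fold changes of 0.34 to 0.83 and did not pass.

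At Dusp2, which encodes a phosphatase first known from activated lymphocytes, 0 of 7 tested peaks passed in limma, with 0 at an unadjusted p under 0.05 and 0 called with the block. The strongest overlaps the gene body, runs past its end and also overlaps Astl (chr2:127336651-127339897). It had 1214, 1403 and 1715 in quiescent samples, against 1179.9, 1529 and 1603 in proliferating samples. The spread within each group was wider than the difference between the groups (0.00 ± 0.17, adjusted p = 0.99). The peak over the start (chr2:127333513-127336434) had 961, 1127 and 1119.8 in quiescent and 995, 1207 and 1336 in proliferating samples, and the groups overlapped (-0.13 ± 0.14, adjusted p = 0.615).

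Dusp4, whose product acts on ERK and other MAP kinases, had called peaks in both directions on its lower-coordinate flank. Its strongest peak, 74291 bp from the gene (chr8:34730809-34733319), had 1810.3, 1775 and 1651 in quiescent samples, against 2498, 2999 and 2897 in proliferating samples. It fell by 0.68 ± 0.11 on the log2 scale (adjusted p = 0.013), with no overlap between the groups. A peak 42135 bp from the gene (chr8:34764747-34765475) had 274, 260.2 and 272 in quiescent samples, against 118, 122 and 135 in proliferating samples. This one rose by 1.10 ± 0.17 (adjusted p = 0.0118), and the 3 values of each group lay close together. Between the pair lies a peak 66615 bp from the gene (chr8:34739894-34740995) with 451, 545 and 708 in quiescent and 346, 304 and 357 in proliferating samples. It missed the threshold without the block and passed with it (0.74 ± 0.19, adjusted p = 0.0508, and 0.00735 with the block).

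The peak at the lower-coordinate end of Dusp4 (chr8:34804507-34807809) had 345, 378 and 398 in quiescent samples, against 433, 582 and 636 in proliferating samples. The groups did not overlap, and the peak passed only with the block (-0.54 ± 0.18, adjusted p = 0.103, and 0.0195 with the block). A weak peak 80637 bp away (31.0 ± 15.9 in quiescent and 90.9 ± 31.0 in proliferating samples, SD, n = 3 each) also passed only with the block (-1.60 ± 0.45, adjusted p = 0.0667, and 0.0212 with the block). Of the 16 tested Dusp4 peaks 10 had a fold change below 0 (median -0.20).

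Dusp5, which encodes a nuclear phosphatase specific for ERK, had the most peaks of the members, 35 with 28 tested. Of the 28, 21 had a fold change above 0 (median 0.46). A peak 67223 bp upstream (chr19:53460990-53461922) overlaps an annotated gene that is not protein-coding. It had 126, 317 and 277 in quiescent samples, against 42.8, 82.7 and 101 in proliferating samples. It rose by 1.64 ± 0.41 on the log2 scale (adjusted p = 0.0471), with quiescent sample 1 only a little above proliferating sample 3. This call was lost when no peak was filtered (adjusted p = 0.0502) and with reads scaled to totals (adjusted p = 0.0625). A weak peak 32180 bp upstream (chr19:53496587-53496965) had 41.0, 47.8 and 39.3 in quiescent samples, against 11.0, 17.3 and 16.7 in proliferating samples. It rose by 1.47 ± 0.35 (adjusted p = 0.0405), on a mean of 33.3 reads in quiescent and 27.3 reads in proliferating samples. These read means are not scaled for depth.

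Stronger Dusp5 peaks narrowly missed the threshold and passed with the block. The strongest, 63500 bp upstream (chr19:53463960-53465645), also overlaps an annotated gene that is not protein-coding. It had 1444, 1628 and 1686 in quiescent samples, against 1269, 979.7 and 1079 in proliferating samples (0.52 ± 0.13, adjusted p = 0.0503, and 0.0133 with the block). A peak 48231 bp upstream (chr19:53478926-53480914) had 876, 1057 and 1125 in quiescent and 707, 742 and 693 in proliferating samples (0.51 ± 0.14, adjusted p = 0.0581, and 0.0139 with the block). At both, every quiescent sample lay above every proliferating one. The same held 21093 bp past the end of the gene (chr19:53562902-53563477), with 170.1, 243 and 257 in quiescent and 115, 123 and 131 in proliferating samples (0.83 ± 0.21, adjusted p = 0.0505, and 0.01 with the block). A weak peak 41937 bp upstream (39.3 ± 14.5 in quiescent and 71.3 ± 23.1 in proliferating samples, SD, n = 3 each) was lower with the block (-0.86 ± 0.35, adjusted p = 0.176, and 0.0487 with the block).

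The promoter peak of Dusp5 (chr19:53528284-53529511), which covers the CArG boxes, had 296, 408 and 344 in quiescent samples, against 294, 278 and 323 in proliferating samples. The groups overlapped there (0.22 ± 0.17, adjusted p = 0.487). Called changes at Dusp5 thus lay outside the gene and its promoter.

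**Figure D2:**
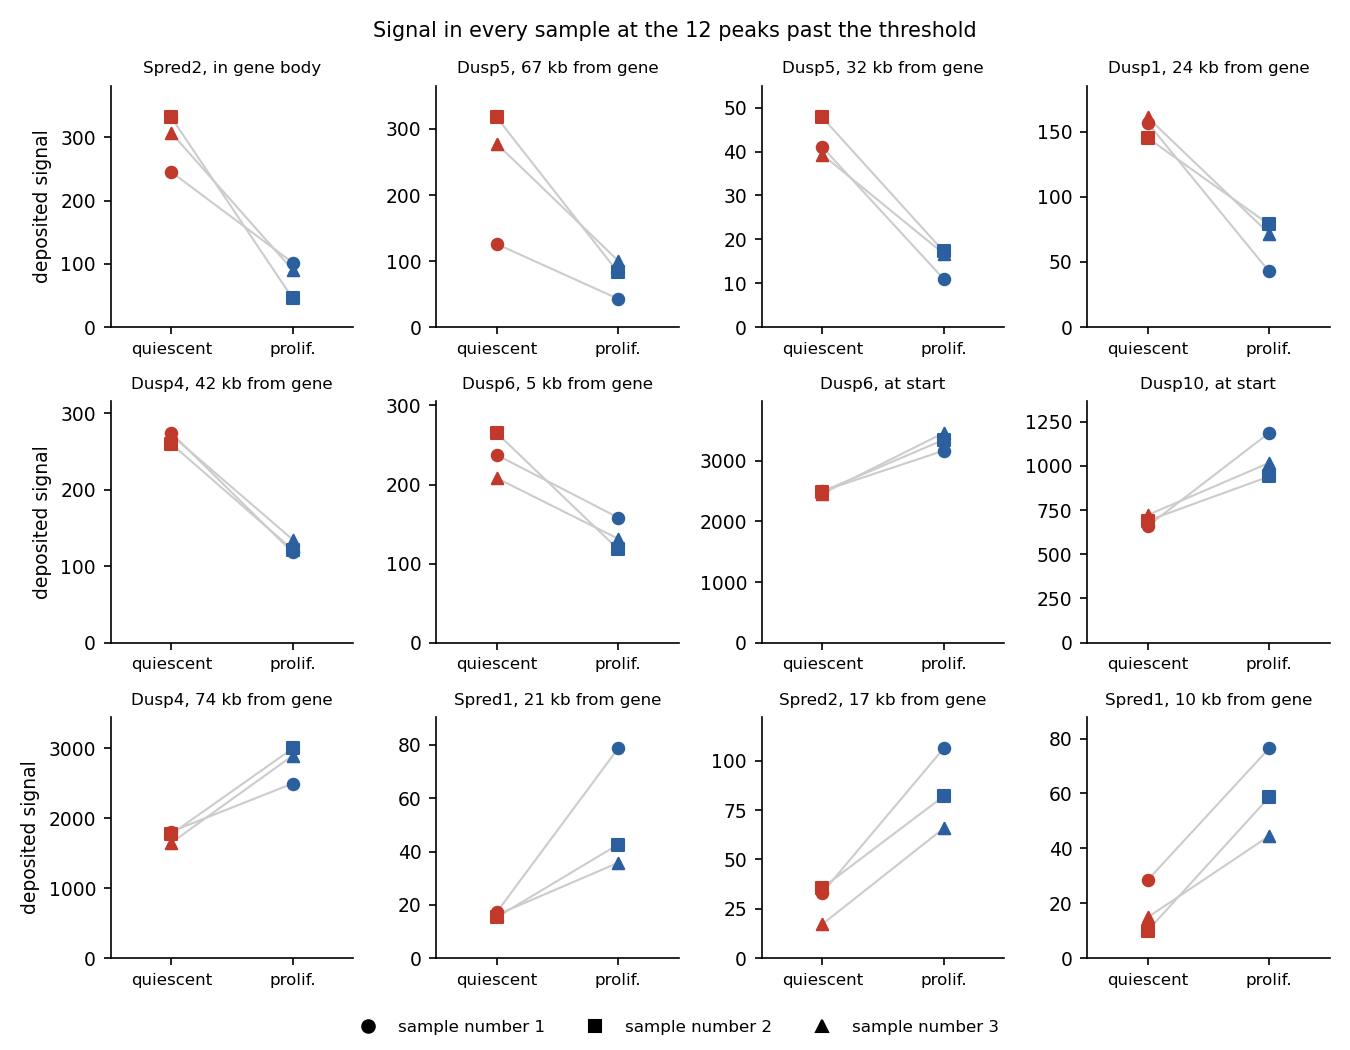
Deposited signal in each quiescent and proliferating sample at the 12 peaks with an adjusted p under 0.05. Lines join samples with the same number in the labels. The groups do not overlap in any panel. At the Spred2 peak 32011 bp from the start the means were 294 in quiescent and 79.3 in proliferating samples.

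Dusp6 encodes a cytoplasmic phosphatase that acts mainly on ERK and is itself a target of ERK signalling. A peak of 7193 bp, the widest of the 150, covered its promoter and most of the gene (chr10:99259550-99266743). It had 2502, 2494 and 2459 in quiescent samples, against 3168, 3347 and 3461 in proliferating samples. The signal fell by 0.42 ± 0.09 on the log2 scale (adjusted p = 0.029), and the quiescent samples lay close to each other and all below the proliferating samples. A smaller peak 4632 bp upstream (chr10:99257803-99258599) moved the other way, with 237, 265 and 208 in quiescent samples, against 158, 118 and 131 in proliferating samples (0.80 ± 0.20, adjusted p = 0.0451). A peak 45 bp past the gene (chr10:99267534-99270131) overlaps an annotated gene that is not protein-coding. It had 1667, 1733 and 1729 in quiescent and 1639, 1764 and 1867 in proliferating samples, and its groups overlapped (-0.04 ± 0.10, adjusted p = 0.863). The farthest peak, 97185 bp past the gene (chr10:99364674-99365585), had 809, 676 and 719 in quiescent and 632, 452 and 405 in proliferating samples. Its groups did not overlap, and it passed only with the block (0.59 ± 0.18, adjusted p = 0.091, and 0.0114 with the block).

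Dusp10 encodes a phosphatase that prefers JNK and p38 over ERK. Its promoter peak (chr1:184033007-184035230), which also overlaps the gene 1700056E22Rik, had 659, 690.1 and 722 in quiescent samples, against 1186, 939.6 and 1016 in proliferating samples. It fell by 0.59 ± 0.13 on the log2 scale (adjusted p = 0.034), with no overlap between the groups. A peak 32357 bp into the gene (chr1:184066738-184067356) had 98.0, 85.3 and 88.3 in quiescent samples, against 57.4, 28.0 and 42.9 in proliferating samples. This weaker peak lay higher in every quiescent sample and passed only with the block (1.12 ± 0.30, adjusted p = 0.0579, and 0.0144 with the block).

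The falls at the Dusp6 start, the Dusp10 start and the strongest Dusp4 peak were recomputed in other ways, since in the deposited values the scaling factor changes with peak strength. With limma-voom on the estimated reads and 1 factor per sample, which changes both the scaling and the model and was chosen after seeing the data, their log2 fold changes were 0.01, -0.25 and -0.28, and none passed. The median over the 9713 strongest peaks was 0.33 in that fit and -0.01 in the deposited values, and all 3 peaks lay below it in both. With reads scaled to the total of each sample, where the median was 0.07 over the same strongest peaks and -0.21 over all tested peaks, they stood at -0.24, -0.53 and -0.53. There the Dusp10 start (adjusted p = 0.0379) and the Dusp4 peak (adjusted p = 0.0216) passed and the Dusp6 start did not (adjusted p = 0.112).

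Sprouty proteins interfere with the relay from growth factor receptors to Ras and Raf. At Spry1 and Spry2, 0 of 14 and 0 of 7 tested peaks passed in limma. At an unadjusted p under 0.05 there was 1 lower peak at Spry1 and 0 at Spry2. The one at Spry1, 223 bp past its end (chr3:37644822-37645758), had 195, 277 and 232 in quiescent samples, against 377, 332 and 329 in proliferating samples. Its groups did not overlap, and it passed with the block (-0.57 ± 0.18, adjusted p = 0.0947, and 0.0381 with the block). The peak over the Spry1 start (chr3:37639469-37640436) had 141, 174 and 142 in quiescent and 126, 201 and 176 in proliferating samples (-0.12 ± 0.23, adjusted p = 0.795). The strongest Spry1 peak, 34979 bp downstream of the start (chr3:37674926-37676677), had 558, 391 and 411 in quiescent and 533, 462 and 472 in proliferating samples (-0.12 ± 0.17, adjusted p = 0.714). Groups overlapped at both of these.

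At Spry2 the peak over the start (chr14:105894852-105899460), also its strongest, had 774, 606 and 546 in quiescent samples, against 912, 719 and 668 in proliferating samples. The groups overlapped, yet each quiescent sample lay below the proliferating sample of its number. Neither fit called it (-0.26 ± 0.18, adjusted p = 0.417, and 0.143 with the block).

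Spred proteins bind Ras and Raf, and Spred1 brings the Ras inactivator neurofibromin to the membrane. Spred1 was the member with the most peaks called lower, 2 without and 5 with the block. None of its 19 tested peaks was called higher by limma with or without the block (0 at an unadjusted p under 0.05). A peak 10274 bp upstream (chr2:117110473-117110797) had 28.5, 10.1 and 14.9 in quiescent samples, against 76.4, 58.6 and 44.5 in proliferating samples. It fell by 1.78 ± 0.42 on the log2 scale (adjusted p = 0.0411). A peak 20965 bp past the end of the gene (chr2:117203244-117203636) had 17.3, 15.4 and 16.3 in quiescent samples, against 78.6, 42.6 and 35.8 in proliferating samples, and fell by 1.54 ± 0.38 (adjusted p = 0.044). This call was lost when the weakest 25% of peaks were left out (adjusted p = 0.0511). Both Spred1 peaks are weak, with means of 16 and 13.3 reads in quiescent samples and 86 and 69.3 in proliferating samples. These read means are not scaled for depth, so they do not measure the difference between groups. Another weak peak, 72317 bp upstream (20.1 ± 14.9 in quiescent and 54.8 ± 21.1 in proliferating samples, SD, n = 3 each), was lower only with the block (-1.61 ± 0.56, adjusted p = 0.121, and 0.0198 with the block).

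Stronger Spred1 peaks varied with the sample number. A peak 6317 bp upstream (chr2:117113272-117114754) had 909.6, 342 and 313 in quiescent samples, against 1366, 962 and 730.4 in proliferating samples. Sample 1 was the highest in each group and the groups overlapped, but each quiescent sample lay below the proliferating sample of its number, with log2 differences of -0.59, -1.49 and -1.22. The call rests on the block (-1.10 ± 0.39, adjusted p = 0.123, and 0.00138 with the block). A peak 57430 bp into the gene (chr2:117178501-117179570) had 738, 343 and 349 in quiescent samples, against 792, 944 and 692 in proliferating samples. Quiescent sample 1 lay above proliferating sample 3 there, and the call again rests on the block (-0.85 ± 0.28, adjusted p = 0.107, and 0.0161 with the block).

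The peak over the Spred1 start (chr2:117119378-117121491) had 256, 305 and 234 in quiescent and 259, 281 and 347 in proliferating samples (-0.15 ± 0.19, adjusted p = 0.661). The strongest Spred1 peak, 14717 bp upstream (chr2:117104730-117106354), had 1244, 1313 and 1626 in quiescent and 1655, 1398 and 1341 in proliferating samples (-0.07 ± 0.14, adjusted p = 0.793). The groups overlapped at both, so the lower calls at Spred1 did not include its start or its strongest site.

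Spred2, which encodes a close relative of Spred1, had 27 peaks, 24 of them tested, and the largest called rise of the members. That peak lies 32011 bp into the gene (chr11:19956453-19957132) and had 245, 331 and 307 in quiescent samples, against 102, 45.6 and 90.5 in proliferating samples. It rose by 1.95 ± 0.31 on the log2 scale (adjusted p = 0.0122). It was still called without proliferating sample 2 or proliferating sample 3, but not without quiescent sample 2 or quiescent sample 3. Another peak, 19137 bp into the gene (chr11:19943579-19944229), had 271, 225 and 156 in quiescent and 104, 112 and 126 in proliferating samples, and was higher only with the block (0.89 ± 0.24, adjusted p = 0.0565, and 0.0173 with the block).

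Past the end of Spred2 a weak peak (chr11:20041028-20041935) had 33.2, 35.6 and 17.2 in quiescent samples, against 106, 82.0 and 65.8 in proliferating samples. It fell by 1.57 ± 0.35 (adjusted p = 0.0334), with no overlap between the groups. A peak 6252 bp upstream of the start (chr11:19917282-19918190) had 127, 63.6 and 73.5 in quiescent and 241, 123 and 124 in proliferating samples, with sample 1 the highest in each group, and was lower only with the block (-0.87 ± 0.35, adjusted p = 0.164, and 0.0118 with the block). The strongest Spred2 peak, 43900 bp into the gene (chr11:19968342-19969443), had 2204, 1786 and 1602 in quiescent and 2009, 2076 and 1717 in proliferating samples (-0.06 ± 0.14, adjusted p = 0.833). The peak over the start (chr11:19923596-19924957) had 656, 631 and 539.9 in quiescent and 485, 698 and 738 in proliferating samples (-0.05 ± 0.18, adjusted p = 0.89). Groups overlapped at these last 2 peaks.

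**Figure D3:**
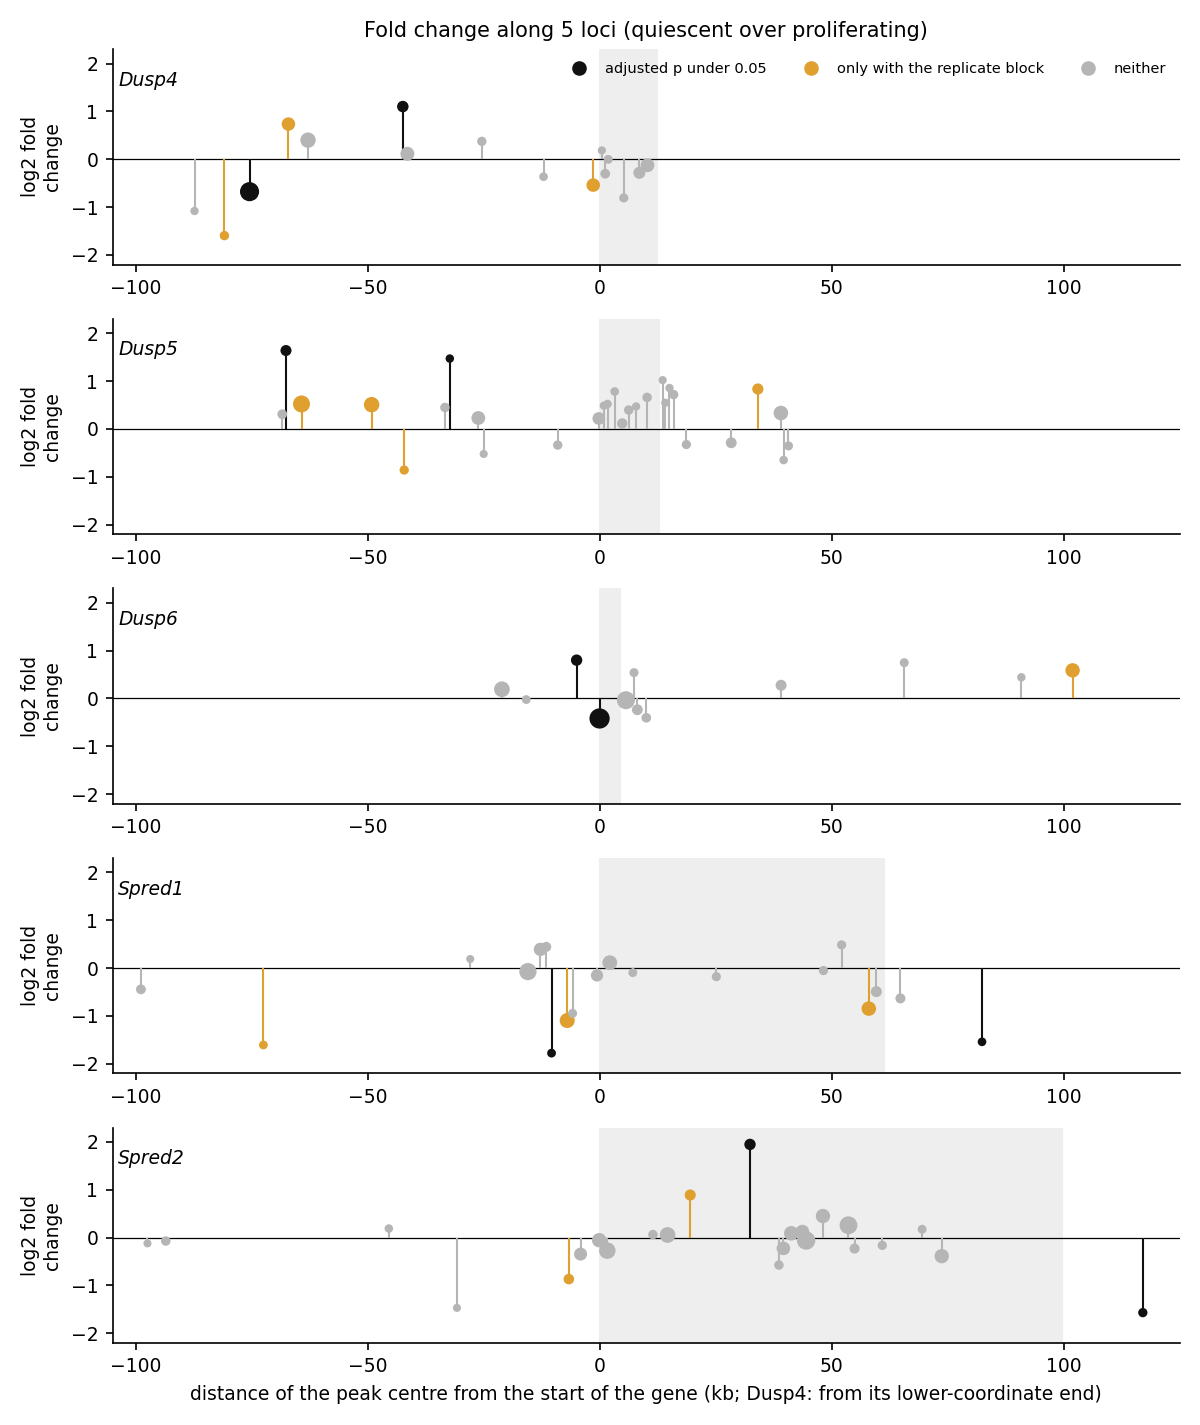
Log2 fold change (quiescent over proliferating) of tested peaks at 5 of the genes against the distance of the peak centre from the start of the gene in kb (for Dusp4 from its lower-coordinate end). The grey band is the gene, and a point's size grows with its mean signal. Fold changes lay above 0 at 21 of 28 Dusp5 peaks and below 0 at 14 of 19 Spred1 peaks.

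By position, 0 of the 9 members' start-site peaks were higher and 2 lower, against 1.1% higher and 1.35% lower among 9714 tested peaks at gene starts. Their median was -0.15, beside -0.09 over all such peaks. Elsewhere in gene bodies 1 of 41 tested member peaks was higher and 0 lower, against 4.12% and 2.78% of all. Dusp4 was not matched to a promoter, so all its gene body peaks are counted here. They include the peak at its lower-coordinate end, lower only with the block. Whether any of them covers the Dusp4 start was not determined. Between protein-coding genes 5 of 85 were higher and 4 lower, against 4.48% and 2.98% of all.

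Signal summed over all peaks of a gene gave 1 member, Dusp5, with every quiescent sample above every proliferating one, and 4 members, Dusp4, Dusp6, Dusp10 and Spry1, with every quiescent sample below. Among all 15839 genes with a peak, 30.7% had groups that did not overlap, 12.2% with quiescent above and 18.6% with quiescent below. The Dusp5 sums were 5256, 6329 and 6126 in quiescent samples, against 4575, 4474 and 4360.4 in proliferating samples, and the ratio of the means was 1.32. The Dusp10 sums were 944, 990.0 and 996 in quiescent samples, against 1525, 1206 and 1271 in proliferating samples, with a ratio of 0.732. These were the members with the most and the least summed signal in quiescent relative to proliferating samples. A sum is weighted to the strongest peaks of a gene and uses the deposited scaling. When each tested peak counted equally, the per-sample medians overlapped between groups at Dusp4, Dusp6, Dusp10 and Spry1. At Dusp5 every quiescent median lay above every proliferating one. The same held at Dusp1, whose sums overlapped. The share of all genes with such medians was not computed. At Dusp6, 7 of 12 tested peaks had a positive log2 fold change (median 0.23).

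The Dusp4 sums were 5431, 5576 and 5408 in quiescent samples, against 5783, 6629 and 6445 in proliferating samples. Those of Dusp6 were 6841, 6738 and 6545 in quiescent samples, against 6880.3, 7076 and 7342 in proliferating samples, close to each other across groups. Those of Spry1 were 2042, 2011 and 1996 in quiescent samples, against 2138, 2354 and 2265 in proliferating samples. With 3 samples against 3 an exact permutation test cannot go below p = 0.1, so no p is given for sums. Over all 150 peaks together the sums were 44034, 43745 and 43957 in quiescent samples, against 45263, 45381 and 44897 in proliferating samples.

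**Figure D4:**
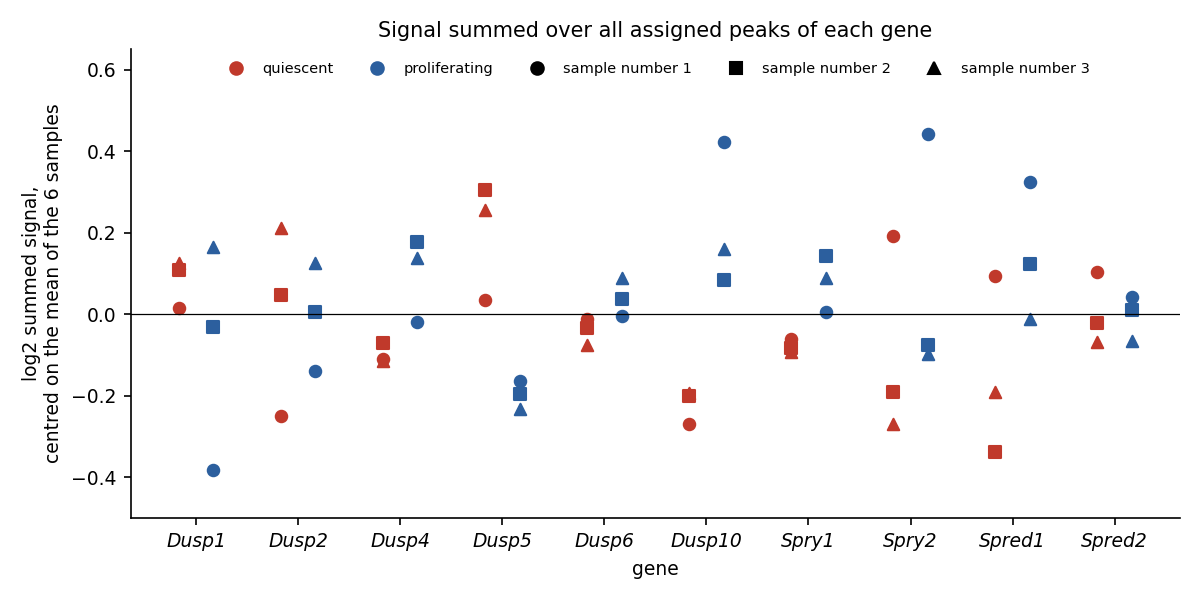
Signal summed over the peaks of each gene in every sample, on a log2 scale centred on the mean of the 6 samples, with quiescent samples left of proliferating ones. The quiescent samples all lie above the proliferating ones at Dusp5 and all lie below them at Dusp4, Dusp6, Dusp10 and Spry1.

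The genes most like Dusp5 in summed signal, among 5665 genes with at least 5 tested peaks, were Gm46319, Znrf1 and Gm38457. Their centred log2 sums differed from those of Dusp5 by a root mean square of 0.016, 0.031 and 0.036 over the 6 samples. Dusp5 itself stood at 0.04, 0.30 and 0.26 in quiescent samples and at -0.16, -0.20 and -0.23 in proliferating samples.

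Other genes of the pathway were described by lists, with a background of 4.01% higher and 2.72% lower for calls without the block, 10.2% and 8.14% for calls with it, and 13.2% and 11.1% at an unadjusted p under 0.05. Among genes of Ras activation (adaptors, exchange factors and Ras genes), 13 of 112 tested peaks were higher and 2 lower (median 0.13). These calls lay at few of the 13 genes, 3 with only higher calls, 1 with only lower calls and 1 with both. With the block 24 peaks were higher and 7 lower. A peak 60215 bp from Rasgrp1, an exchange factor of lymphocytes, had 440.0, 390.0 and 353 in quiescent samples, against 178, 146 and 139 in proliferating samples. It rose by 1.35 ± 0.18 on the log2 scale (adjusted p = 0.00847), as did one in the adaptor gene Gab2 (1.80 ± 0.26). A peak inside Rasgrp1 fell (-1.02 ± 0.22).

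Among genes of Ras inactivation, 2 of 109 tested peaks were higher and 3 lower (median 0.06), and 8 and 7 with the block. Different peaks in Dab2ip, a Ras GTPase-activating protein gene, rose (1.34 ± 0.24) and fell (-1.97 ± 0.36). A peak near Rasa2, of the same function, rose (1.42 ± 0.33). A peak near Nf1, which encodes neurofibromin, the partner of Spred1, fell (-1.16 ± 0.27).

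In the Raf-MEK-ERK core 0 of 86 tested peaks were higher and 3 lower in limma (median -0.03), with 5 and 8 at an unadjusted p under 0.05, and 3 and 8 called with the block. A peak inside Ksr1, whose product is a scaffold for Raf, MEK and ERK, had 402, 334 and 349.9 in quiescent samples, against 731, 660.0 and 599.7 in proliferating samples. It fell by 0.87 ± 0.15 on the log2 scale (adjusted p = 0.0154), and so did one near the gene (-0.95 ± 0.17).

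Among genes of the JNK and p38 core, 6 of 133 tested peaks were higher and 5 lower (median -0.01), and 16 and 10 with the block. A peak inside Mapk14, which encodes p38 alpha, had 438, 604 and 752 in quiescent samples, against 178, 158 and 198 in proliferating samples. It rose by 1.71 ± 0.22 on the log2 scale (adjusted p = 0.00773), as did a second one (1.95 ± 0.30). Peaks fell in Map3k4 (-0.86 ± 0.19) and near Map3k1 (-0.94 ± 0.22), which encode kinases at the top of these branches.

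Among other dual-specificity phosphatases and Sprouty kin, 5 of 77 tested peaks were higher and 0 lower (median 0.14). The 5 lay at 2 of the 9 genes with a peak. At an unadjusted p under 0.05 there were 15 higher and 3 lower, and 11 and 1 were called with the block. A peak in Dusp22, which encodes a small atypical phosphatase, had 1487, 1255 and 1234 in quiescent samples, against 632, 776 and 736 in proliferating samples. It rose by 0.89 ± 0.14 on the log2 scale (adjusted p = 0.0116), and another in the gene rose by 1.21 ± 0.23. Spry3 and Spred3 had no assigned peak. Among ERK effectors and output genes, 9 of 198 were higher and 7 lower (median -0.01), and 15 and 17 with the block. Peaks rose near Rps6ka5, whose product is a kinase activated by ERK and p38 (0.80 ± 0.13), and near the early response gene Ier3 (1.75 ± 0.31). Peaks fell near the ETS factor genes Elk3 (-0.81 ± 0.16) and Ets2 (-1.34 ± 0.27).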

How the data were processed

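The files held 1 signal value for each of 97124 peaks in 6 ATAC-seq samples. Per the submitters' processing notes the authors used Bowtie2, SAMtools and MACS2 with mm10. Versions, parameters and the scaling step are not stated there. The deposited signal is scaled coverage: in each sample the value of 1 read changed with peak strength. Reads per peak were estimated from these steps. Of values of 1 to 1000 reads, 99.8% to 100% in a sample came out within 0.1 of a whole read. The steps were chosen for this agreement, so it is not an independent check of the estimate. Read intervals would cover counting error only.

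The members and lists were chosen with earlier results of these data known. Peaks were placed on RefSeq genes of GRCm38.p6. The weakest 10% by mean were left out, and limma 3.58.1 (R 4.3.3) with an intensity trend was fitted to log2(signal + 1) of all other peaks, with Benjamini-Hochberg adjustment. Such fold changes understate changes of weak peaks. The script was tested on simulated data. Deviations from the group mean correlated at 0.43, 0.29 and 0.21 between samples numbered 1, 2 and 3, so the number was also used as a block. Between numbers, quiescent 2 with proliferating 3 (0.22) and quiescent 3 with proliferating 2 (0.15) correlated too, so numbers 2 and 3 are not separated by this check, and the other 4 pairs were at -0.36 to -0.21. This pairing comes from the data, since the labels do not say what a number marks. Named were all called peaks, the strongest peak of each gene, peaks over a start and, per pathway list and direction, up to 2 peaks with the smallest adjusted p. A pathway peak that this rule names is not reported here. Peaks called only with the block, and the Dusp6 peak past the gene and the Dusp4 peak at its end, were added after their values were seen.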

Additional observations from a re-analysis of the deposited data

How the results depend on the processing

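Among all tested peaks the replicate block gave 8885 higher and 7114 lower. Limma-voom on estimated reads, chosen after seeing the data, gave 8726 higher and 3486 lower, and reads scaled to totals gave 5315 lower. Leaving out 1 sample gave 0 to 5572 higher and 0 to 3077 lower. Of the member peaks 13 were higher and 14 lower with the block, in which same-numbered samples are paired, and 19 were higher with limma-voom. Leaving out 1 sample gave 0 to 9 higher and 0 to 8 lower member peaks. Counting only peaks that overlap a gene body left 1 higher and 2 lower. Dropping peaks between protein-coding genes that overlap another annotated gene left 5 higher and 6 lower. The median of the member peaks was -0.058 without the weakest 25% of peaks, -0.16 with reads scaled to totals, 0.080 with limma-voom, -0.058 in gene bodies alone, -0.061 with those same peaks dropped, and -0.0090 to 0.052 with 1 sample left out. It therefore has no stable sign. The peak over the Dusp6 start was at 0.011 with limma-voom, a fit that changes both scaling and model (adjusted p = 0.957), and at -0.24 with reads scaled to totals (adjusted p = 0.112). The cause was not tested. Of the 12 called peaks 7 were still called with reads scaled to totals, where the Dusp1 peak, both Dusp5 peaks and both Dusp6 peaks were lost, and 9 with limma-voom. The Dusp5 peak 67223 bp upstream was not called when no peak was filtered (adjusted p = 0.0502). Without the weakest 25% of peaks the Spred1 peak 20965 bp past the gene was not called (adjusted p = 0.0511) and the Dusp5 peak 32180 bp upstream was not tested. All 12 called peaks kept their direction under pseudocounts of 8 and 0.5, both filters where tested, the block, reads scaled to totals and each left-out sample. edgeR and DESeq2 were not run, since the value of 1 read changes with peak strength. Depth limits the weak peaks, with a median of 27 reads per peak in proliferating sample 1.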
